A study of Mus musculus with 14 samples.

Results

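Tripotent clones of bone marrow stromal cells, which had formed bone, fat and cartilage in culture (the libraries OAC1, OAC2 and OAC3), were compared with clones that had formed fat alone (A1, A2 and A3). These 6 of the 14 RNA sequencing libraries of the series were taken by the differentiation potential in their labels, without any use of expression values. The marrow was that of thigh and shin bones of adult C57Bl/6 mice with the irtTA-GBD*-TAg transgene, whose cells express large T antigen, a viral oncoprotein that drives division, only while it is induced. All groups carried this transgene, had been expanded with 1e-07 M dexamethasone and 1 µg/ml doxycycline as inducers, and were lysed for RNA after 3 days without them. OAC1, OAC2, A1 and A2 are single clones, number 1 and number 2 of a group coming from different mice, whereas OAC3 and A3 each pool several further clones of those same mice. The spread behind every test is therefore that between clones and pools, and the main fit takes it from all groups of 3 in the series. The labels do not say that a number marks the same mouse across groups. The other libraries are used for that fit and where they bear on these 6. They are 3 of osteo-adipogenic (OA) and 3 of osteogenic (O) clones, the osteo-chondrogenic pool OC3 and the adipo-chondrogenic pool AC3.

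Skeletal stromal cells of adult marrow give rise to osteoblasts, to marrow adipocytes and, in culture, to chondrocytes, and they support blood stem cells through factors such as Cxcl12 and Kitl. Osteoblast commitment runs through the transcription factors Runx2, Dlx5 and then Sp7 (osterix), followed by collagen I, alkaline phosphatase (Alpl) and mineral-binding proteins such as Ibsp and Bglap. Adipocyte commitment runs through Cebpa and Pparg, and cartilage through Sox9 with its targets Col2a1 and Acan. Tripotent and adipogenic-only clones thus share the labelled capacity for fat, and differ in the labelled capacity for bone and cartilage.

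Of the 14 genes named for their FDR or the size of their difference, 8 have a promoter in the RefSeq table of build GRCm38.p6, among them Ibsp, Clec11a and Zwint. These 3 are shown with Fmod, a given marker of this contrast, as examples of both directions, Zwint being the one lower in OAC. The windows are those of Fmod (chr1:134037004-134037303, plus strand), Ibsp (chr5:104299037-104299336, plus strand), Clec11a (chr7:44306910-44307209, minus strand) and Zwint (chr10:72654596-72654895, plus strand), each 300 bases long and written 5′ to 3′ in the direction of the gene. Capitals mark, on either strand, the TATA box written TATAAA and the box written CCAAT. Also searched were the core letters read by Runx factors, TGTGGT, and those read by Pitx factors, TAATCC. No searched motif overlapped another in these windows.
Fmod: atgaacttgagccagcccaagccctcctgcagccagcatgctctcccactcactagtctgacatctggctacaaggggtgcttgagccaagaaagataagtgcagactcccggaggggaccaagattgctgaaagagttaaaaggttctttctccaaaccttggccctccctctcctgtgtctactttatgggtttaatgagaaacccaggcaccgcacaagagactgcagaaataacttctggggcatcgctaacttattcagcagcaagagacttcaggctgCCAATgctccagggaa
Ibsp: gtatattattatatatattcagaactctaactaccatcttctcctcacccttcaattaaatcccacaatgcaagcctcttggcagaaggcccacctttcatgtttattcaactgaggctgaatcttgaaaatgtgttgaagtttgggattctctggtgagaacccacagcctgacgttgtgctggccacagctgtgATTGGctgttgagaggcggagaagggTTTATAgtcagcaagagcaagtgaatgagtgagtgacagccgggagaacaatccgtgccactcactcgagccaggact
Clec11a: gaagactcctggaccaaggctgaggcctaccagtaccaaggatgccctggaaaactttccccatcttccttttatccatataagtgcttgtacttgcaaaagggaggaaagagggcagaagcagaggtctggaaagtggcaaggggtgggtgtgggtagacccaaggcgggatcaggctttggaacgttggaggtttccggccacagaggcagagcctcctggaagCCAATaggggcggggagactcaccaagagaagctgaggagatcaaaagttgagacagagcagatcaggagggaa
Zwint: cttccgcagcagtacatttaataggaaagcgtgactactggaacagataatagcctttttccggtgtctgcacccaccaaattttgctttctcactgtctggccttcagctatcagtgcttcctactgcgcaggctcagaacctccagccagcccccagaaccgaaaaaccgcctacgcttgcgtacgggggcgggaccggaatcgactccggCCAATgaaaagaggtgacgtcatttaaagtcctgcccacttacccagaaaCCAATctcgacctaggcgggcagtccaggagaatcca

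The letters CCAAT stood in all 4 of these windows, on the reverse strand in Ibsp and at 2 places in Zwint. Of all 27025 promoters in the table, 37.9% hold them. These windows were picked and the other named promoters are not shown, so no enrichment can be read from the 4. Only the Ibsp window held TATAAA, also reversed, and 14.2% of all promoters do. Neither TGTGGT (16.9% of all promoters) nor TAATCC (7.16%) was found in these 4 windows, which says only that those letters are not there.

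Total counts in the 6 libraries lay between 16888190 (OAC2) and 24814073 (A3), and levels are given as CPM, the counts scaled to a common library size with TMM factors. The libraries were not equally alike within groups. Over all tested genes the root mean square log2 difference was 0.77 between OAC1 and A1 and 0.86 between OAC3 and A3. Both lay below every pair of OAC libraries (0.93 to 1.29), while pairs of A libraries lay at 0.83 to 0.94. The other pairs across groups lay at 0.96 to 1.28. Deviations also followed the GC content of genes, with a rank correlation across genes of 0.35 in OAC1, 0.36 in OAC2 and -0.55 in OAC3, against 0.03, -0.13 and -0.20 in A1, A2 and A3. Markers of other cells were low in sum, and their part in the results was not tested. Blood markers summed to 8.87 to 20.0 CPM in OAC and 16.6 to 24.6 CPM in A libraries, with Ptprc and Cd52 at 0 in all 6. The 11 endothelial markers in the table summed to 8.93 to 26.1 CPM in OAC and 5.92 to 15.7 CPM in A libraries, with Cldn5 at 0. For skeletal muscle the sums were 23.2 to 83.2 CPM in OAC and 21.0 to 76.7 CPM in A libraries, with Myh2 at 0. Schwann and neural markers summed to 63.2 to 135 CPM in OAC and 27.5 to 259 CPM in A libraries. Smooth muscle contractile genes, which cultured stromal cells also express, reached 11981 to 17996 CPM in OAC and 10060 to 13603 CPM in A libraries.

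The comparison asked which genes separate clones able to form all 3 tissues from clones able to form fat. Pitx1, a homeobox transcription factor, separated them most sharply and was near absent in A. Fmod, a collagen-binding matrix protein, was also separated without overlap, by a smaller fold. A set of osteoblast and collagen genes stood higher in OAC, most of the osteoblast genes far less evenly among the OAC libraries than the collagens. No adipocyte or marrow niche gene passed a test in either direction. With 3.58% of all genes at an unadjusted edgeR p under 0.05, this is near the background and no result about those lists. Zwint, a kinetochore protein, was lower in OAC by a small and even amount.

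In numbers, edgeR's quasi-likelihood test with Benjamini-Hochberg adjustment called 1 of 13896 tested genes at an FDR of 0.05, Pitx1, which is 0.0072% of them. Fmod had an FDR of 0.118 and every other gene one of at least 0.9998. At an unadjusted p under 0.05, edgeR counted 267 genes higher (1.92%) and 231 lower (1.66%) in OAC, and DESeq2's size factors in the same test turned that split into 313 and 160. The other tool, DESeq2, called 57 genes (0.41%), 50 higher (0.36%) and 7 lower (0.0504%). Its call is treated as the weaker one, a cautious choice that simulated counts, drawn from edgeR's own fit, cannot settle. Of its 57 calls, 8 were kept whichever of the 6 libraries was left out: Pitx1, Fmod, Sp7, Clec11a, Tspan18, Col12a1 and Srpx, all higher in OAC, and Zwint, lower. Without OAC2 DESeq2 called 13 genes, and without OAC1 it called 104. Below, a gene is said to have risen or fallen when edgeR or DESeq2 called it, with the tool named.

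**Figure D1:**
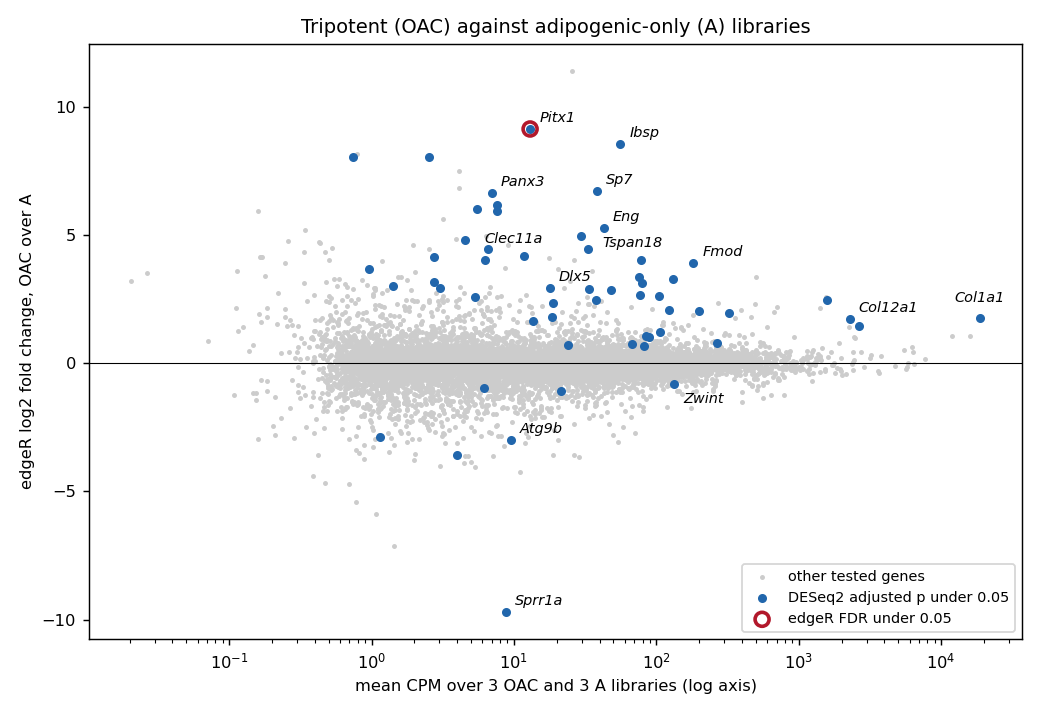
Each point is a tested gene, with its mean CPM over the 3 OAC and 3 A libraries on a log x axis and its edgeR log2 fold change, OAC over A, on the y axis. Blue points are the 57 DESeq2 calls and the red ring is Pitx1, the edgeR call, while Fmod, Col12a1 and Col1a1 stand out among abundant genes and Zwint lies just below the line.

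Pitx1 (ENSMUSG00000021506), known for specifying hindlimb and pituitary identity, had 20.5, 26.0 and 31.4 CPM in OAC1, OAC2 and OAC3, against 0.0822, 0.0405 and 0 CPM in A1, A2 and A3. Every OAC library lay far above every A library, and the OAC values were close to each other. The OAC libraries held 1671 Pitx1 reads together and the A libraries 3, a ratio of 656 after scaling, with a 95% counting interval of 224 to 3183 that covers counting error only. Pitx1 rose by a log2 fold change of 9.15 ± 0.92 (SE) at an edgeR FDR of 0.0176, with a DESeq2 adjusted p of 1.06e-15. The edgeR call was lost when any 1 of the 6 libraries was left out, at FDR 0.0583 to 0.307, and with single clones only, at FDR 0.447, while the log2 fold change stayed at 8.44 to 10.00 in those fits. In bulk libraries, fewer expressing cells and less RNA in each cell cannot be told apart, so the A values do not tell which of these holds. Pitx1 was also present in the other bone-forming groups, where OA libraries averaged 32.4 ± 15.3 CPM and the O libraries 57.0 ± 43.2 CPM (SD, n = 3 each). Its log2 difference was -0.32 ± 0.59 for OAC against OA (edgeR FDR 0.9997) and -1.13 ± 0.59 for OAC against O (edgeR FDR 0.856). The unreplicated pools had 26.7 CPM in OC3 and 34.2 CPM in AC3, and AC3 lacks the bone label as A does.

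Of 16 tested limb patterning factors, 1 besides Pitx1 reached an unadjusted edgeR p under 0.05, beside 3.58% of all genes. This was Twist2, a mesenchymal repressor, which did not reach it without OAC2, OAC3 or A1, or with single clones only. Its values were 11.1, 5.53 and 4.70 CPM in OAC, against 19.7, 15.4 and 17.1 CPM in A libraries, a log2 difference of -1.29 ± 0.50 that passed neither tool. Tbx3, a T-box factor of the limb, had all OAC libraries above all A libraries, as 4.79% of all genes did. Its values were 4.59, 2.45 and 8.21 CPM in OAC, against 0.247, 1.42 and 1.98 CPM in A libraries (2.06 ± 1.08, passing neither tool). The list's median log2 fold change was 0.15, beside -0.03 over all tested genes, and the hindlimb factor Tbx4 and the forelimb factor Tbx5 had no read in any of the 6 libraries. Among 28 tested Hox genes, which fix position along the body and limb, 2 had an unadjusted p under 0.05, which is near the 3.58% of all genes, and both were higher in OAC, with 1 left without OAC3, A1 or A3. The Hox median was -0.17, with 18 of 28 lower in mean in OAC. Hoxc11 had 6.27, 28.7 and 13.3 CPM in OAC, against 0.658, 0 and 2.94 CPM in A libraries (3.73 ± 1.20 on the log2 scale, DESeq2 adjusted p 0.0595).

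**Figure D2:**
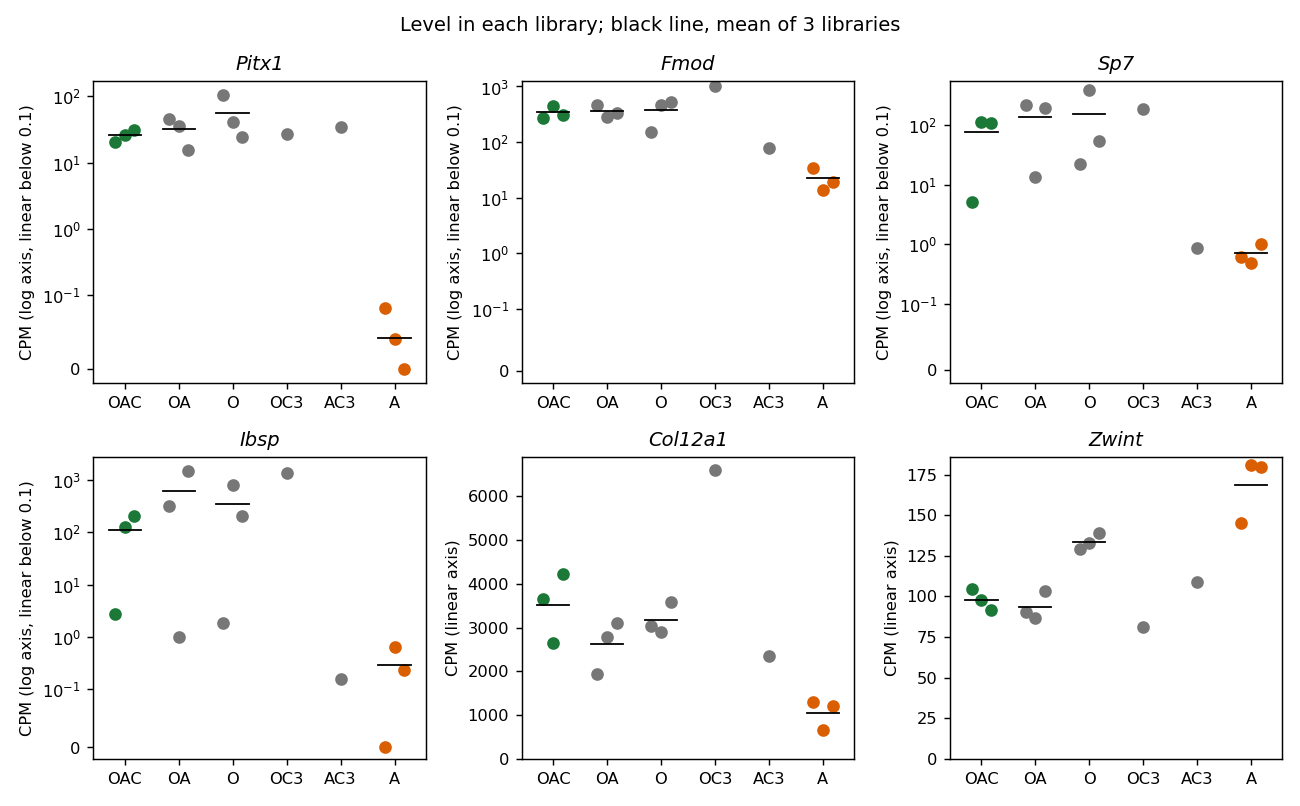
Each point is a library and each black line the mean of a group of 3, with the level in CPM on the y axis (log axes linear below 0.1 for Pitx1, Fmod, Sp7 and Ibsp, linear axes for Col12a1 and Zwint). OAC (green) and A (orange) do not overlap in any of the 6 panels. Pitx1, Sp7, Ibsp and Zwint passed a naming rule that required this, so it is no further evidence for them. Of all genes, 4.79% had all OAC libraries above all A libraries and 6.02% had them all below. OAC1 is the low point of OAC for Sp7 and Ibsp at 5.21 and 2.74 CPM.

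Fmod encodes fibromodulin, a small leucine-rich proteoglycan that regulates collagen fibril assembly in tendon and cartilage. It reached 268, 450 and 308 CPM in OAC1, OAC2 and OAC3, against 34.7, 13.6 and 19.4 CPM in A1, A2 and A3. The lowest OAC library was thus several-fold above the highest A library. By DESeq2 Fmod rose (adjusted p 1.09e-12), and its edgeR log2 fold change was 3.92 ± 0.52 at an FDR of 0.118. The edgeR FDR came to 0.0327 without the filter on low counts and to 0.0351 without the libraries OA2 and O1, whose deviations followed GC content at rank correlations of 0.67 and 0.53. Group means were 359 ± 87.7 CPM in OA and 378 ± 196 CPM in O (SD, n = 3 each). Against OA and O the log2 differences of OAC were -0.07 ± 0.46 and -0.14 ± 0.46, with edgeR FDRs of 0.9997 and 0.997. AC3, at 78.6 CPM, lay between A and the lowest OAC library.

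Among 10 tested small leucine-rich proteoglycans, which coat and space collagen fibrils, 3 had an unadjusted edgeR p under 0.05 and all were higher in OAC (1.92% of all genes): Fmod, Ecm2 and Prelp. The list's median log2 fold change was 1.13 but came to -0.02 without OAC3. Prelp overlapped between groups, at 10.5, 50.4 and 108 CPM in OAC and 20.5, 9.73 and 3.78 CPM in A libraries.

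Cartilage genes were mixed, and their list shares Fmod with that of the proteoglycans. Of 15 tested members, DESeq2 called 2 as risen (0.36% of all genes), Fmod and Comp, a pentameric glycoprotein of cartilage and tendon matrix, and 6 members had all OAC libraries above all A libraries (4.79% of all genes did), with 1 the other way (6.02% of all genes). Comp had 2.78, 13.2 and 11.7 CPM in OAC, against 1.89, 1.58 and 1.11 CPM in A libraries, with a log2 fold change of 2.59 ± 0.62. The DESeq2 call of Comp (adjusted p 0.00704) was lost without OAC2, OAC3, A2 or A3, at adjusted p values of 0.0554 to 0.212. Sox9, the transcription factor on which cartilage depends, averaged 13.6 ± 5.60 CPM in OAC and 12.6 ± 6.28 CPM in A libraries (SD, n = 3 each). Its log2 difference of 0.11 ± 0.48 turned to -0.25 without OAC3. Col2a1, the main collagen of cartilage, ranged over 18.2 to 242 CPM in OAC and 40.3 to 192 CPM in A libraries, so the groups overlapped fully. Acan fell below the filter on low counts. Neither Sox9 nor Col2a1 passed either tool.

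In the main fit, osteoblast genes were the list with the highest median, a log2 fold change of 1.27 over 27 tested members beside -0.03 over all genes. This rank did not hold in every setting. Small leucine-rich proteoglycans led with the GC offset (1.72 beside 1.37) and with single clones only (1.09 beside 0.91). They also led with the replicate block (1.27 beside 1.21) and with block and GC offset together (1.71 beside 1.57). Wnt feedback targets led without OAC3 (0.97 beside 0.78) and without A1 (1.33 beside 1.10). With a filter of 5 CPM the endothelium list, then of 1 gene, led (2.06 beside 1.51). Of the 27, 26 had a higher mean in OAC. At an unadjusted edgeR p under 0.05 there were 12, none of them lower, beside 1.92% of all genes higher at that p. The members of this and the other lists were chosen with earlier results of these data known, so such counts are not independent support. DESeq2 called 5 of the 27 as risen, beside 0.36% of all genes: Col1a1, Dlx5, Sp7, Ibsp and Panx3. The OAC clones differed widely here, with OAC2 and OAC3 high and OAC1 closer to A. The count of 12 came to 7 without OAC2, A1 or A3, and to 5 with single clones only, while the median stayed between 0.78 and 2.02 over the settings tried.

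Sp7, the transcription factor that commits cells to the osteoblast lineage, had 5.21, 114 and 109 CPM in OAC1, OAC2 and OAC3, against 0.617, 0.486 and 1.03 CPM in A1, A2 and A3. Even OAC1 stood above all A libraries. Sp7 rose by DESeq2 (adjusted p 1.27e-05), with an edgeR log2 fold change of 6.73 ± 1.63. Its upstream partner Dlx5, a homeobox factor, had 12.8, 54.7 and 27.0 CPM in OAC, against 5.02, 1.66 and 5.57 CPM in A libraries (2.94 ± 0.68, DESeq2 adjusted p 0.00229). Without OAC2 the DESeq2 call of Dlx5 was lost at an adjusted p of 0.169. Runx2, which acts before Sp7, differed far less, at 93.0, 169 and 94.5 CPM in OAC and 86.5, 84.0 and 58.5 CPM in A libraries. Its log2 difference of 0.64 ± 0.48 passed neither tool, although all OAC libraries lay above all A libraries, as for 4.79% of all genes.

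Among matrix and mineral genes, Ibsp, the bone sialoprotein that binds mineral, had 2.74, 125 and 208 CPM in OAC, against 0, 0.648 and 0.229 CPM in A libraries. It rose by DESeq2 (adjusted p 0.0107; edgeR log2 fold change 8.55 ± 2.87), but the call was lost without OAC2, OAC3, A1 or A3 at adjusted p values of 0.0512 to 0.155. Panx3, a channel protein of osteoblasts and chondrocytes, behaved alike, with 0.221, 15.8 and 25.3 CPM in OAC and 0.0411, 0.203 and 0.153 CPM in A libraries (6.64 ± 2.39, DESeq2 adjusted p 0.0127, lost without the same 4 libraries). Alpl, the alkaline phosphatase that frees phosphate for mineral, had 233, 1400 and 1096 CPM in OAC and 146, 70.1 and 45.6 CPM in A libraries. Its log2 difference of 3.38 ± 1.11 missed the DESeq2 threshold at an adjusted p of 0.0595. Bglap (osteocalcin), the late marker, stayed low in both groups, at 0.177, 5.66 and 3.04 CPM in OAC and 0.411, 0.324 and 0.114 CPM in A libraries, and OAC1 lay inside the A range. Among the pools without replicates, AC3 had 0.873 CPM of Sp7, 0.159 CPM of Ibsp and 30.6 CPM of Alpl, with Sp7 and Ibsp inside the range of A and Alpl below it.

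**Figure D3:**
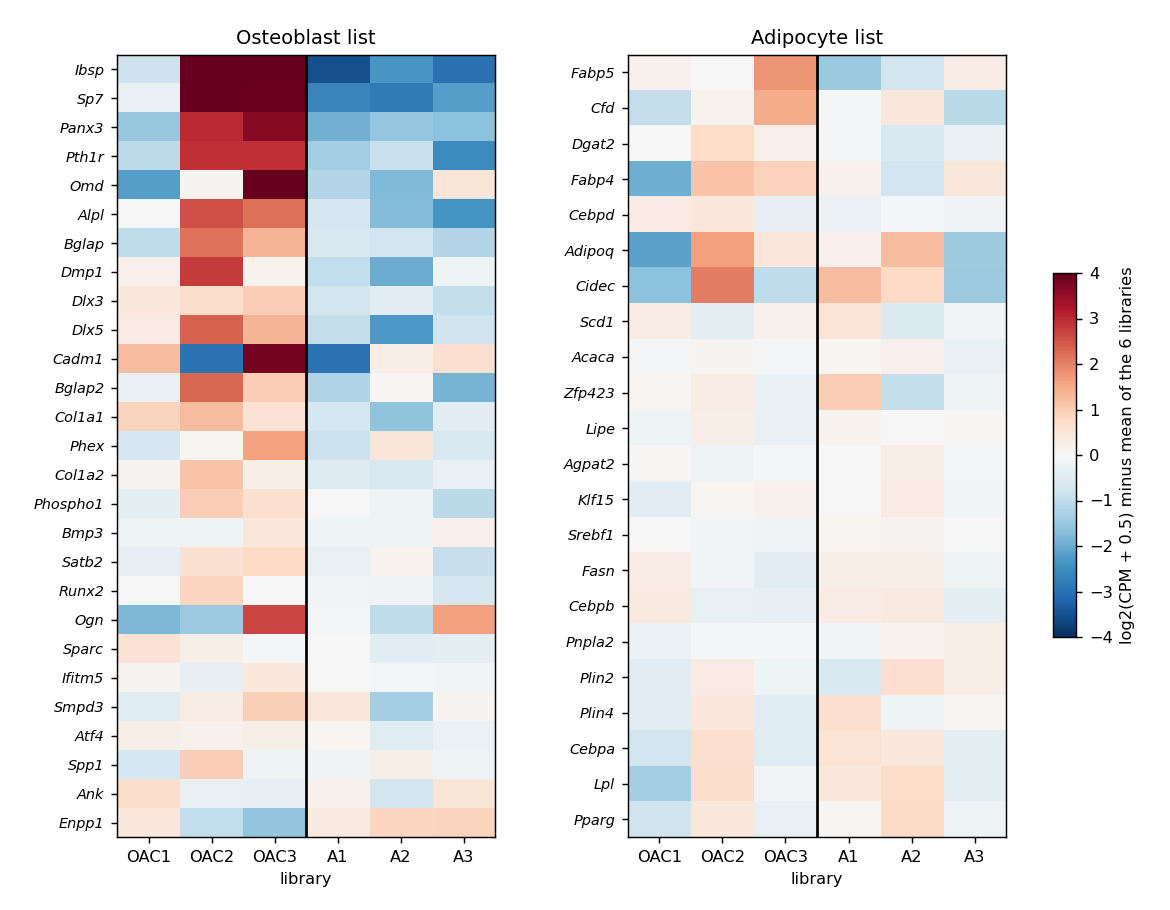
Each row is a tested gene of the osteoblast list (left) or the adipocyte list (right), ordered by edgeR log2 fold change, and each column a library. Colour is the log2(CPM + 0.5) minus its mean over the 6 libraries and is saturated beyond 4 in either direction, and the osteoblast rows at the top are red in OAC2 and OAC3 and pale or blue in OAC1.

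Collagens and their processing enzymes were higher in OAC more evenly. Of 24 tested members, 10 had an unadjusted edgeR p under 0.05, all in that direction (1.92% of all genes). All OAC libraries lay above all A libraries for 12, beside that 4.79%. Col1a1 and Col1a2 count in the osteoblast list too, so the lists are not separate. The count of 10 came to 5 without A2, and without OAC1 it was 6 higher with 1 lower. The median log2 fold change was 0.50 and ranged over 0.36 to 0.76 across settings. Col12a1, a fibril-associated collagen of tendon, periosteum and bone, had 3653, 2651 and 4223 CPM in OAC1, OAC2 and OAC3, against 1305, 652 and 1217 CPM in A1, A2 and A3. It rose by DESeq2 (adjusted p 5.92e-05; edgeR log2 fold change 1.73 ± 0.32) whichever library was left out. Col1a1, the main chain of bone collagen, had 28280, 36209 and 22511 CPM in OAC and 9345, 4961 and 11243 CPM in A libraries. Its edgeR log2 fold change was 1.77 ± 0.38, and the DESeq2 call at an adjusted p of 0.00152 was lost without OAC2 at 0.125. Col3a1, a collagen of soft connective tissue, had a DESeq2 adjusted p of 0.0455 (2.47 ± 0.70) that was lost without any library except OAC3, at 0.0603 to 0.551. P4ha1, a subunit of the enzyme that hydroxylates collagen prolines, had 277, 378 and 336 CPM in OAC and 164, 192 and 182 CPM in A libraries (0.88 ± 0.27, DESeq2 adjusted p 0.209).

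Of 22 tested adipocyte genes none had an unadjusted edgeR p under 0.05 and DESeq2 called none. With 3.58% of all genes at that p, this count is near the background and is no result about the list. The median log2 fold change was -0.14. Pparg, the nuclear receptor that drives adipogenesis, had 18.6, 43.7 and 26.4 CPM in OAC, against 34.4, 55.2 and 28.3 CPM in A libraries, a log2 difference of -0.41 ± 0.46. For Cebpa, which sustains Pparg, the log2 difference was -0.32 ± 0.56. Lpl, the lipoprotein lipase of early adipocytes, had 56.4, 237 and 136 CPM in OAC and 196, 246 and 114 CPM in A libraries, with a log2 difference of -0.37 ± 0.87. Fabp4, a fatty acid carrier, had a log2 difference of 0.51 ± 0.84. These SEs leave room for differences of about a factor of 2 or more, so equality was not shown. Plin1 fell below the filter. Both groups kept Lpl above the O libraries, which averaged 5.48 ± 5.59 CPM (n = 3), and OAC against O differed by 4.70 ± 1.02 on the log2 scale at an edgeR FDR of 0.730.

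Of 17 tested marrow niche genes none had an unadjusted p under 0.05, again near the 3.58% of all genes, and the median log2 fold change was 0.08. Cxcl12, a chemokine that retains blood-forming cells in marrow, had 2282, 4236 and 3066 CPM in OAC, against 4833, 5131 and 2413 CPM in A libraries. The groups overlapped, and the log2 difference was -0.37 ± 0.34. In O libraries Cxcl12 averaged 563 ± 141 CPM (SD, n = 3), a log2 difference of 2.50 ± 0.36 for OAC against O that had an edgeR FDR of 0.462. Kitl, the stem cell factor, had 11.2, 18.4 and 48.7 CPM in OAC and 41.4, 45.5 and 25.0 CPM in A libraries (-0.52 ± 1.08).

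**Figure D4:**
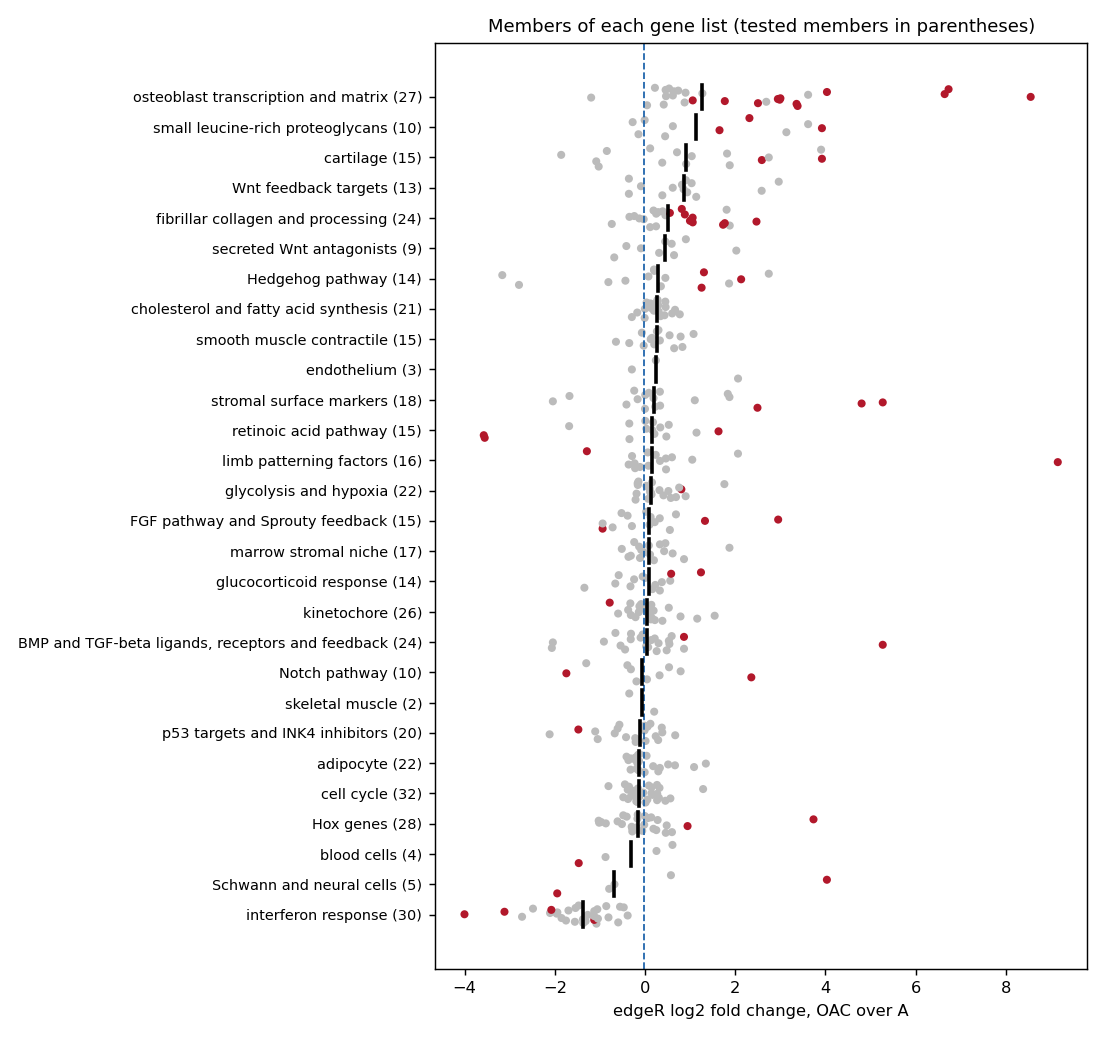
Each point is a tested member of a gene list, with its edgeR log2 fold change, OAC over A, on the x axis; red marks an unadjusted edgeR p under 0.05, the black tick is the list's median and the dashed line the median of all tested genes (-0.03). The osteoblast list has the highest median, 1.27, and the interferon list the lowest, -1.37.

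Zwint, a kinetochore protein needed for the spindle checkpoint, fell in OAC by DESeq2 (adjusted p 0.000435). It had 105, 97.8 and 91.4 CPM in OAC1, OAC2 and OAC3, against 145, 181 and 180 CPM in A1, A2 and A3. The groups did not overlap, and the spread was narrow, at 97.9 ± 6.64 CPM in OAC and 169 ± 20.2 CPM in A libraries (SD, n = 3 each). The edgeR log2 fold change was -0.78 ± 0.16, and the DESeq2 call was kept without each of the 6 libraries. OA averaged 93.5 ± 8.92 CPM, O 134 ± 4.91 CPM, and OC3 and AC3 had 81.3 and 109 CPM, so the A libraries were the high group of the series. Against OA the log2 difference was 0.07 ± 0.16 and against O -0.45 ± 0.16, with edgeR FDRs of 0.9997 and 0.763.

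Of 26 tested kinetochore genes Zwint was the single one with an unadjusted edgeR p under 0.05, and of 32 cell cycle genes none had one. Both counts are near the 3.58% of all genes and say little about the lists, whose medians were 0.05 and -0.14. Without OAC3, 2 kinetochore genes had such a p, both lower. Mis12, a subunit of the kinetochore complex that Zwint's partner Casc5 binds, had 28.3, 23.5 and 36.2 CPM in OAC and 40.2, 42.4 and 31.7 CPM in A libraries. Cenpf and Casc5 were high in OAC3. Cenpf, a kinetochore protein of late cell cycle, had 1.46, 2.07 and 92.9 CPM in OAC1, OAC2 and OAC3, against 5.43, 7.98 and 19.7 CPM in A1, A2 and A3. Its log2 difference of 1.54 ± 1.85 became -2.65 without OAC3 and was 1.24 with a GC offset. OAC3 is both the pool of its group and the library whose deviations followed GC content with the opposite sign from OAC1 and OAC2. Pooling and GC content cannot be told apart here, and the cause was not tested. Tk1, a nucleotide salvage enzyme of S phase, had 26.3, 25.8 and 29.5 CPM in OAC and 56.3, 48.2 and 38.7 CPM in A libraries. All OAC libraries lay below all A libraries, as for 6.02% of all genes, and the log2 difference of -0.81 ± 0.57 passed neither tool.

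**Figure D5:**
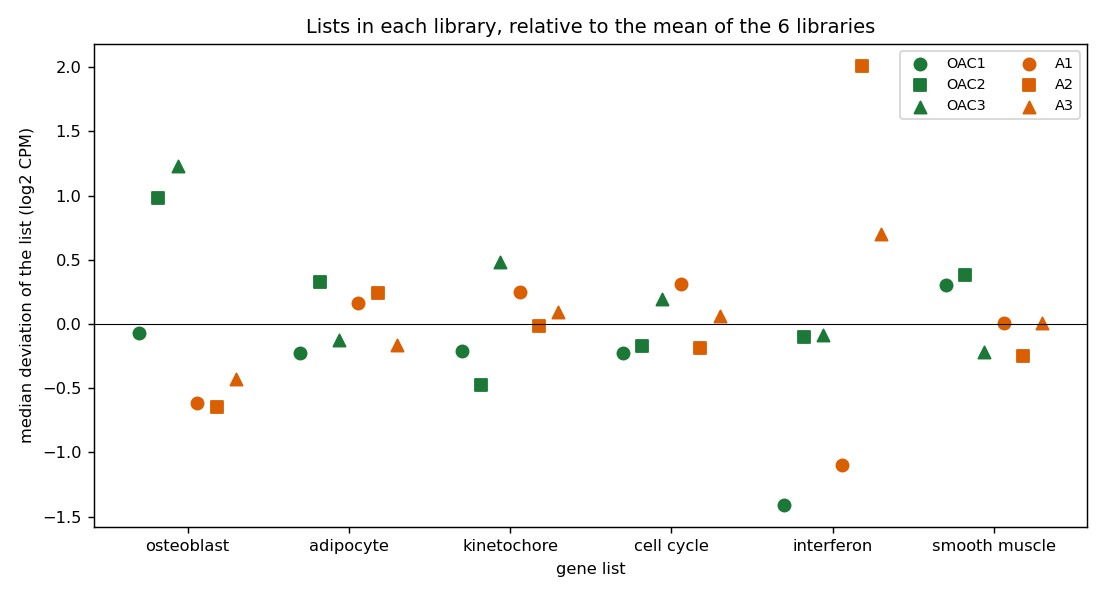
For each gene list on the x axis, points give the median over tested members of log2 CPM minus its mean over the 6 libraries, with OAC in green and A in orange and the shape marking the library number. OAC2 and OAC3 are high for the osteoblast list at 0.98 and 1.23 while OAC1 is at -0.07, and A2 is high for the interferon list at 2.01.

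Several further genes rose by DESeq2 outside these lists. Clec11a, a secreted glycoprotein known in mouse as a bone-promoting growth factor (osteolectin), had 18.1, 20.6 and 28.1 CPM in OAC1, OAC2 and OAC3, against 1.11, 1.58 and 0.916 CPM in A1, A2 and A3. Its OAC values were about as even as those of Pitx1. The edgeR log2 fold change was 4.21 ± 0.90 with a DESeq2 adjusted p of 1.51e-04, and a fit of the 6 libraries alone gave an edgeR FDR of 0.0412. The O libraries were higher still at 130 ± 114 CPM (SD, n = 3), with a log2 difference of -2.54 ± 0.82 for OAC against O that did not pass (edgeR FDR 0.763). Tspan18 (ENSMUSG00000027217, the more abundant of 2 genes under that symbol), a membrane tetraspanin, had 25.0, 129 and 36.6 CPM in OAC and 2.34, 4.58 and 1.60 CPM in A libraries, with a DESeq2 adjusted p of 5.92e-05 and an edgeR log2 fold change of 4.48 ± 0.95. Srpx, named here because its call did not depend on any 1 library, had 3.93, 2.39 and 9.20 CPM in OAC and 0.699, 0.122 and 0.0382 CPM in A libraries.

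Among 18 tested stromal surface markers, 3 had an unadjusted edgeR p under 0.05, all higher in OAC (1.92% of all genes): Cspg4, Eng and Cd200, of which DESeq2 called Cspg4 and Eng. Eng (endoglin), a co-receptor for TGF-beta ligands, had 6.80, 171 and 72.7 CPM in OAC, against 2.39, 1.82 and 2.25 CPM in A libraries, and its edgeR log2 fold change was 5.27 ± 1.27. Its DESeq2 adjusted p of 1.69e-04 became 0.0616 without OAC2. Cspg4 (NG2), a proteoglycan of pericytes, had 20.4, 0.880 and 4.78 CPM in OAC and 0.452, 0.203 and 0.267 CPM in A libraries, and the call was lost without OAC1 at a DESeq2 adjusted p of 0.0700. S100b, a calcium-binding protein that also marks Schwann cells and chondrocytes, had 29.4 CPM in OAC2 but 1.54 and 4.58 CPM in OAC1 and OAC3, against 0.699 to 0.729 CPM in A libraries. Its call too was lost without OAC2, at a DESeq2 adjusted p of 0.408. Ptgis, the prostacyclin synthase, rested on OAC1, at 31.4 CPM, whereas OAC2 and OAC3 had 0.566 and 0.750 CPM and A libraries 0.0405 to 0.288 CPM. Ccrl1, an atypical chemokine receptor, rested on OAC2 at 31.8 CPM, beside 3.97 and 2.01 CPM in OAC1 and OAC3 and 0.114 to 1.15 CPM in A libraries. Insc, an adaptor that orients the mitotic spindle, followed the bone genes, at 1.59, 20.5 and 23.0 CPM in OAC and 0.0822, 0.243 and 0.382 CPM in A libraries. The DESeq2 calls of these last genes were lost in 5, 3 and 4 of the 6 leave-outs, at adjusted p values up to 1.00 for Ptgis and Ccrl1 and 0.185 for Insc.

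Of the 7 genes that DESeq2 called lower in OAC, 3 besides Zwint were named for size, and their calls, unlike that of Zwint, were lost in some leave-outs. Pitpnc1, a lipid transfer protein, was the most even, at 12.4, 14.8 and 14.1 CPM in OAC, against 33.0, 28.6 and 25.1 CPM in A libraries, with an edgeR log2 fold change of -1.07 ± 0.25. It fell by DESeq2 at an adjusted p of 0.0171, lost at 0.106 to 0.201 without any library but A3. Atg9b, an autophagy membrane protein, had 3.05, 0.755 and 2.49 CPM in OAC and 16.3, 4.30 and 30.3 CPM in A libraries (-3.01 ± 0.80, DESeq2 adjusted p 0.0257, lost without OAC2, OAC3, A1 or A3 at 0.0998 to 0.393). Sprr1a, a cornified envelope protein of epithelia, had 1 read in all OAC libraries and 1378 in A libraries, almost all of them in A3. Its levels were 0.0441, 0 and 0 CPM in OAC and 0.288, 3.04 and 49.5 CPM in A libraries, and its DESeq2 adjusted p of 0.00117 became 0.321 without A3.

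Neither tool called a Hedgehog, FGF or retinoic acid pathway gene. In the Hedgehog pathway 3 of 14 tested genes had an unadjusted edgeR p under 0.05, all higher in OAC, beside 1.92% of all genes: the receptor and feedback target Ptch1, the effector and target Gli1, and the co-receptor Boc. Ptch1 had 71.1, 51.7 and 100.5 CPM in OAC, against 34.1, 24.5 and 31.8 CPM in A libraries (1.30 ± 0.43, DESeq2 adjusted p 0.230). Gli1 had 3.49, 3.21 and 7.35 CPM in OAC and 0.288, 1.46 and 1.45 CPM in A libraries (2.13 ± 0.87, DESeq2 adjusted p 0.446). Both had all OAC libraries above all A libraries, as 4.79% of all genes did, and neither passed a tool. In the FGF pathway 3 of 15 had such a p, beside 3.58% of all genes in either direction, the receptors Fgfr2 and Fgfr3 higher and the phosphatase Dusp6, a feedback target, lower. Fgfr2 had 193, 405 and 317 CPM in OAC and 167, 86.3 and 112 CPM in A libraries, with a log2 difference of 1.33 ± 0.43 and a DESeq2 adjusted p of 0.208. Among 24 BMP and TGF-beta genes 2 had such a p, Eng and Tgfb1, both higher (1.92% of all genes), and without A2 there was 1. The ligand Bmp4 was even within each group, at 84.2, 88.8 and 83.6 CPM in OAC against 44.5, 45.7 and 50.9 CPM in A libraries, a log2 difference of 0.86 ± 0.42 that passed neither tool. In the retinoic acid pathway 3 of 15 genes had such a p (3.58% of all genes), 1 higher and 2 lower, and none had one without OAC2, OAC3 or A2. The synthesising enzyme Aldh1a2 had 7.68, 0.189 and 4.50 CPM in OAC, against 25.2, 98.5 and 22.7 CPM in A libraries, and the degrading enzyme Cyp26b1 had 13.5, 33.6 and 41.3 CPM in OAC, against 14.5, 6.97 and 7.14 CPM in A libraries. Their log2 differences were -3.56 ± 1.52 and 1.63 ± 0.70, with DESeq2 adjusted p values of 0.562 and 0.572.

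Interferon response genes had the lowest median, a log2 fold change of -1.37, and all 30 tested members had a lower mean in OAC. At an unadjusted edgeR p under 0.05 there were 4, all lower (1.66% of all genes), and neither tool called a member. The list's median deviation on the log2 scale was -1.41, -0.10 and -0.08 in OAC1, OAC2 and OAC3, against -1.10, 2.01 and 0.70 in A1, A2 and A3, so A2 was the high library and A1 lay near OAC1. Without A2 the median was -0.47 and no member had an unadjusted p under 0.05, and without A1 there were 14. Mx1, an antiviral GTPase, had 0.353, 0.377 and 0.316 CPM in OAC, against 0.329, 15.8 and 0.916 CPM in A libraries. Among 20 p53 targets and INK4 inhibitors, relevant because large T antigen binds p53, 1 had an unadjusted p under 0.05, near the 3.58% of all genes, and none did without OAC2, OAC3 or A3. This was Pmaip1 (Noxa), a death-promoting protein, at 15.4, 11.5 and 13.4 CPM in OAC and 24.0, 43.9 and 44.7 CPM in A libraries (-1.48 ± 0.64, DESeq2 adjusted p 0.734). Mdm2, the p53 ligase and target, had 254, 191 and 315 CPM in OAC and 392, 467 and 778 CPM in A libraries. All its OAC libraries lay below all A libraries, as for 6.02% of all genes, and neither tool called it.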

How the data were processed

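Per the labels' protocols, oligo(dT)-enriched mRNA was sequenced strand-specifically. The authors deposited raw counts of reads for each gene, and per the submitters' processing notes CASAVA 1.8.0, bedtools 2.11 and build mm9 were used. Neither aligner nor strand setting is named in the sources used here, so genes that overlap or resemble each other have uncertain counts, and 196 genes share a symbol. Columns were matched by name to the 14 libraries.

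The 13896 of 23331 genes that reached 1 CPM in 3 or more libraries were tested with edgeR 4.0.16 in R 4.3.3, using TMM factors, a robust quasi-likelihood F test and 6 group means over all 14 libraries (8 residual degrees of freedom, common dispersion 0.282). The threshold was a Benjamini-Hochberg FDR of 0.05. Each SE is the size of the log2 fold change over the root of F. DESeq2 1.42.0 was the second tool and gave no adjusted p for 21 genes. Both were run on counts simulated from edgeR's own fitted means and dispersions, which cannot rank the tools on these data. Intervals are exact at 95%.

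Named genes were those past the FDR, the 10 per direction with the greatest fold change among genes with an unadjusted edgeR p under 0.05, a DESeq2 call, at least 5 CPM on average and no overlap (fewer qualified), fixed lineage genes, and up to 4 members of lowest p from each of 28 lists. The members and lists were chosen with earlier results of these data known. GC content came from GENCODE transcripts for 13409 genes (96.5%). Same-numbered OAC and A libraries deviated together with correlations of 0.29, 0.06 and 0.36, against -0.38 to 0.20 for libraries of other numbers. The numbers were not taken as pairs in the main fit, because the labels do not say that a number marks the same mouse across groups. Alternatives covered scaling, filters, left-out libraries, single clones, a GC offset and a replicate block.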

Additional observations from a re-analysis of the deposited data

Results flagged for a closer look

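Signal appeared in 2 libraries outside the comparison, above the level in A libraries. Pitx1 had 26.7 CPM in the osteo-chondrogenic pool OC3 and 34.2 CPM in the adipo-chondrogenic pool AC3, against 0 to 0.0822 CPM in A libraries. Fmod had 1009.5 CPM in OC3 and 78.6 CPM in AC3, against 13.6 to 34.7 CPM in A libraries. Both pools are single libraries, so these levels carry no replicate error.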

How the results depend on the processing

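The edgeR count of 1 gene was also 1 with DESeq2 size factors, upper-quartile factors, a filter of 5 CPM or a GC offset. It was 2 without the low-count filter, 2 with the OAC and A libraries alone, 2 without OA2 and O1, and 0 with single clones only. Leaving out each library in turn gave 0 to 0, and DESeq2 gave 57. DESeq2's own count was 13 to 104 over those leave-outs. Among the named genes, OAC against OA and OAC against O had 0 edgeR calls under every edgeR setting that included those groups. Over all tested genes these contrasts were counted in the main fit, with 0 calls in each. With the replicate number as a block the edgeR count was 1, and it was 1 with block and GC offset together. Signs reversed for Lpl (-0.94 to 0.012 over the leave-outs, positive without OAC1), Sox9 (-0.23 with single clones only, -0.25 to 0.51 over the leave-outs, negative without OAC3 or A1), Col2a1 (-0.65 to 1.51, negative without OAC1), Cenpf (-1.93 with single clones only, -2.65 to 2.26 over the leave-outs, negative without OAC3) and Casc5 (-3.63 with single clones only, -3.88 to 1.73 over the leave-outs, negative without OAC3, -0.25 with the replicate block, -0.16 with block and GC offset); the cause was not tested. With 3 libraries a group, clones and pools as replicates and 8 residual degrees of freedom, modest differences were not resolved.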
